A study of Mus musculus with 4 samples.

Results

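The collagen and laminin genes of the gastrulating mouse embryo were taken by name: every gene called Col, a number, a and a number, or called Lama, Lamb or Lamc and a single digit. This rule found 41 genes, 32 collagens and 9 laminins, among the 19616 genes listed in 3 single-cell RNA-seq count tables, 1 for each stage. The tables came from whole mouse embryos at the mid- to late-streak (MS-LS), no bud to early bud (OB-EB) and early head fold (EHF) stages. All embryos carried the same alleles, TnEGP-CreERT2/+ and R26Rtdtomato/R26Rtdtomato, in which CreERT2 and nuclear GFP are made where the primitive streak gene T is active and tamoxifen switches on tdTomato in those cells. All were exposed to tamoxifen given by oral gavage (0.08 mg/bw). MS-LS embryos received it at E6+5h and were collected at E6+21h, OB-EB embryos received it at E6+21h and were collected at E7+3h, and EHF embryos received it at E7+7h and were collected at E7+14h. No group was left untreated. Each stage was 1 library of cells from several embryos, so stage and library cannot be told apart, and the intervals given here cover the error of counting molecules only and not the spread between embryos. The tdTomato label was not used here.

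Collagens and laminins build the sheets of matrix on which epithelia stand and the fibres of connective tissue. In a basement membrane, laminin trimers of an α, a β and a γ chain form the first layer on the cell surface, and type IV collagen, made of 2 α1 chains and 1 α2 chain (the products of Col4a1 and Col4a2), forms a cross-linked network with it that nidogen and perlecan bridge. In the early mouse embryo the parietal endoderm is known for laying down Reichert's membrane, a thick basement membrane that lines the trophoblast, while the visceral endoderm covers the epiblast and the extraembryonic ectoderm. Fibrillar collagens, such as types I, II, III and V, belong to mesenchyme and cartilage and are made in quantity later.

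The libraries held 3635 cells at MS-LS, 3994 at OB-EB and 3494 at EHF, with a median of 4251, 2620.5 and 5584 molecules (unique molecular identifiers, UMIs) per cell. The EHF table was deposited under 2 sample labels. These copies held the same count at each of 65128160 places and were counted as 1 library, although 21 gene names differed between them. The libraries shared 12 to 18 cell barcodes in pairs. Levels are given as counts per 1000000 UMIs (CPM), summed over the cells of a library or class, with exact Poisson 95% intervals. UMIs count 3′ ends of transcripts and are not scaled to gene length, so a difference in level between genes is a difference in counted molecules.

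Most of the family was listed but rarely counted. Of the 41 genes, 29 were listed at all 3 stages, with 34 at MS-LS, 32 at OB-EB and 38 at EHF. Together they held 3208, 1789 and 7176 UMIs, or 179, 147 and 352 CPM. Only 8 members reached 50 UMIs at MS-LS, 8 at OB-EB and 18 at EHF. The 6 members with the most UMIs were the type IV chain genes Col4a1 and Col4a2, the laminin chain genes Lamb1, Lamc1 and Lama5, and Col18a1, whose product is a basement membrane collagen that gives rise to endostatin. In the GENCODE annotation of GRCm38, Lamb1 lies at chr12:31265234-31329644, Lamc1 at chr1:153218922-153332786, Lama5 at chr2:180176373-180225859, Col18a1 at chr10:77052178-77166548, and the type IV pair on chromosome 8 is placed below. These 6 held 82.8% of the family's UMIs at MS-LS, 74.6% at OB-EB and 76.5% at EHF.

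Of the 55 genes that carry such a name in the mouse annotation, 14 were in no table. They were Col4a3 and Col4a4 of the kidney and lung type IV network, the microfibril genes Col6a4, Col6a5 and Col6a6, the short-chain genes Col8a1, Col8a2 and Col10a1, and Col5a3, Col15a1, Col20a1, Col28a1, Lama2 and Lamc3. The MS-LS table did not list Col3a1, Col6a1, Col6a2, Col6a3, Col19a1, Col25a1 and Col26a1. Among the genes that the OB-EB table did not list were Col3a1, Col6a1, Col6a2, Col6a3, Col12a1, Col17a1, Lama3 and Lamb3, and the EHF table did not list Col17a1, Col19a1 and Lama3. Lama3 and Lamb3, laminin chain genes of stratified epithelium, had 3 and 12 UMIs over the 3 libraries. In all, 14 listed members had under 20 UMIs over the 3 libraries, among them Col3a1 with 9 and Col6a1, Col6a2 and Col6a3 with 7, 8 and 3. Others were the fibrillar or fibril-associated genes Col24a1 (17), Col22a1 (15), Col12a1 (11), Col11a2 (9) and Col19a1 (3), and the transmembrane genes Col25a1 (6) and Col17a1 (3). A middle group had 20 to 40 UMIs, with Col4a6 at 40, the anchoring fibril gene Col7a1 at 38, the fibrillar gene Col11a1 at 31, Col14a1 at 27, Col16a1 at 24 and Col9a2 at 20. No order by stage or class is read from either group.

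To place the genes by germ layer, cells were clustered in each library with all members and their partner genes left out, and clusters were named from other marker genes, so that the levels below were not used to form the classes. A class is called X-like because it rests on rebuilt clusters. At MS-LS, OB-EB and EHF 650, 1515 and 633 cells (17.9%, 37.9% and 18.1%) took no name. They held 12.9%, 29.6% and 5.25% of the family's UMIs, which the named classes leave out. The reference for the extraembryonic and endodermal classes was the streak-like, epiblast- and ectoderm-like and embryonic mesoderm-like cells together (1343, 1363 and 1297 cells at MS-LS, OB-EB and EHF), called the embryonic reference here. These classes did not hold the same types at each stage. At the earlier stages the streak-like class took the name primitive streak, while its 79 EHF cells took the name caudal epiblast (T at 638, Nkx1-2 at 352 and Cdx2 at 395 CPM). The epiblast- and ectoderm-like class was all epiblast at MS-LS and OB-EB, and at EHF it was 112 epiblast, 210 rostral neuroectoderm and 174 caudal neuroectoderm cells. The embryonic mesoderm-like class was all nascent mesoderm at MS-LS and OB-EB, and at EHF it was 147 nascent, 249 presomitic, 134 cranial and pharyngeal, 97 cardiac and 95 paraxial mesoderm cells. A difference between stages in these classes is also one between types. With 1 library a stage there is no test. A gene was counted as higher or lower when it passed 2-fold and the compared groups held 50 or more UMIs of it in sum, and the share of all genes that did so is given as the background. A member or partner gene that is rare in one group enters this count only through the group where it is higher. The counts and medians of members and of partner genes are therefore descriptions.

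Col4a1 and Col4a2, the most counted pair, lie 5′ to 5′ on opposite strands of chromosome 8, where their annotated starts are 21 bases apart and their first bases overlap. The stretch from one start to the other is shown because it belongs to both genes. It spans chr8:11312805-11312826 of GRCm38.p6 (RefSeq, plus strand), where Col4a2 starts at its left end and reads rightward on the plus strand and Col4a1 starts at its right end and reads leftward on the minus strand.
Col4a2 start to Col4a1 start: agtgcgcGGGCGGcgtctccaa
The capitals mark the GC box letters GGGCGG, and 72.7% of the 22 bases were G or C. The promoter windows of 250 bases before to 50 after the start overlapped by 78 bases, and they held 1 GC box for Col4a1 and 3 for Col4a2 and 1 CCAAT box each, both strands read. Windows were found for 28 of the 41 members (32 windows). GGGCGG was in 59.4% of them and in 35.7% of all 32851 windows, CCAAT in 37.5% and 37.4%, TATAAA in 12.5% and 13.6%, and the GATA-type letters AGATAA in 6.25% and 11.2%. The other type IV pairs also lie 5′ to 5′ on opposite strands, without overlap. Col4a5 and Col4a6 start 1309 bases apart on the X chromosome and had 90 and 40 UMIs over the 3 libraries, and Col4a3 and Col4a4 start 72 bases apart on chromosome 1 and were in no table.

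By stage, the family's summed level was lowest at OB-EB and highest at EHF. Lama1 (chr17:67697259-67822647), an α chain gene of the first laminins of the embryo, differed most, with 2.23 CPM at MS-LS, 2.30 at OB-EB and 23.0 at EHF. Col4a1 was the most counted member at each stage with 51.0, 39.9 and 82.6 CPM. Its partner Col4a2 had 16.9, 10.3 and 50.3 CPM. Lama5, the α chain gene of many later epithelial basement membranes, had 13.2, 7.88 and 12.9 CPM.

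**Figure D1:**
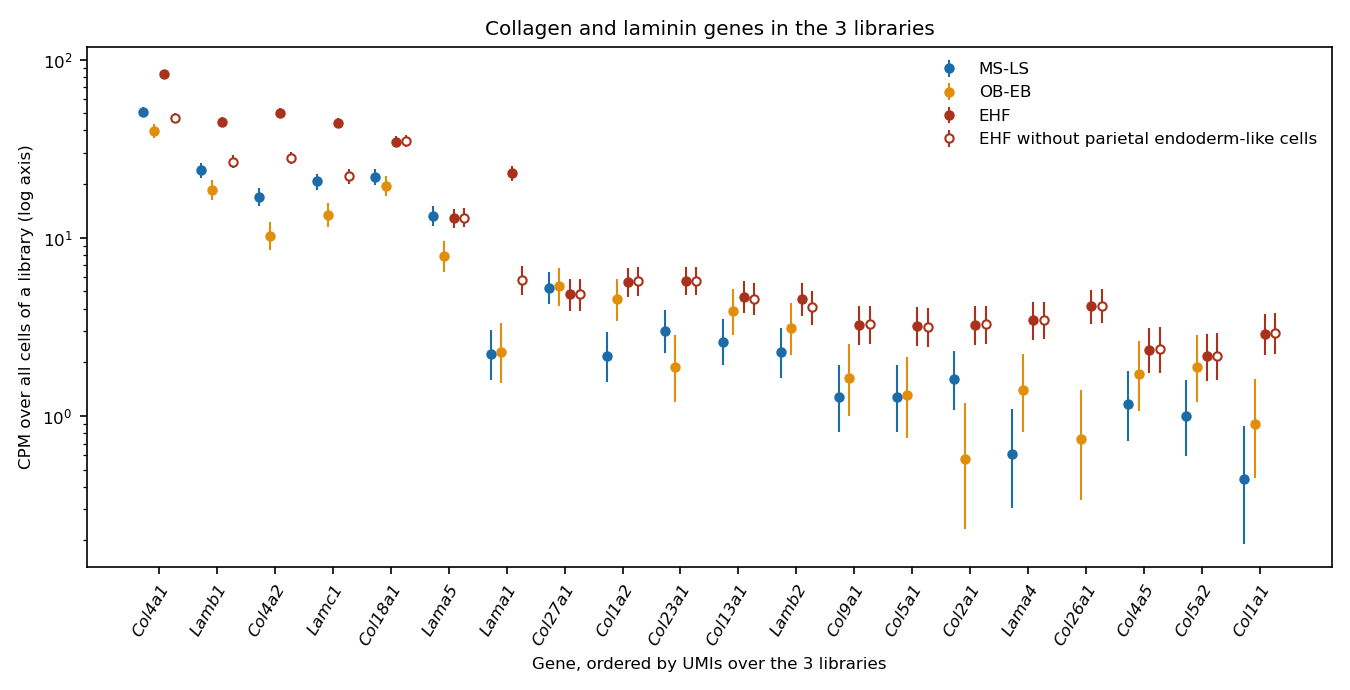
Level of the 20 members with the most UMIs in each library, in CPM over all cells on a log axis, with exact Poisson 95% intervals as bars. Open points are EHF without its 66 parietal endoderm-like cells, where Lama1 is at 5.79 CPM instead of 23.0 and Col4a1 at 46.9 CPM instead of 82.6.

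From MS-LS to EHF, 11 of the 20 members with enough UMIs passed 2-fold upward and none downward, against 13.7% of all genes upward and 4.92% downward. The median log2 ratio was 1.01 over these members and 0.28 over all genes. Most of these members had enough UMIs through EHF alone. Only 8 had 50 UMIs at MS-LS, and of those 2, Col4a2 and Lamc1, passed upward, against 6.46% of all genes with 50 UMIs there. Lama1 led with a log2 ratio of 3.37 (interval 2.90 to 3.87), or 10.3-fold. It was followed by Col1a1, the α1 chain gene of type I collagen, at 2.70 (1.63 to 3.98) from 8 to 59 UMIs, and by Lama4, a laminin α chain gene of endothelium and mesenchyme, at 2.49 (1.56 to 3.55) from 11 to 70 UMIs. The others past 2-fold were Col4a2 (1.57), Col1a2 (1.38), Col9a1 (1.34), Col5a1 (1.32), Col5a2 (1.11), Lamc1 (1.09), Col4a5 (1.01) and Col2a1 (1.0), on the log2 scale.

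The fibrillar and smaller members past 2-fold stayed at low levels. Col1a1 stood at 0.45, 0.90 and 2.90 CPM at MS-LS, OB-EB and EHF, Col1a2 at 2.17, 4.52 and 5.64, and Col2a1 at 1.61, 0.57 and 3.24 CPM. The type V genes Col5a1 and Col5a2, whose products start type I fibrils, stood at 1.28, 1.31 and 3.19 CPM and at 1.002, 1.89 and 2.16 CPM. Col9a1, of a collagen on the surface of fibrils, stood at 1.28, 1.64 and 3.24 CPM, Col4a5 at 1.17, 1.72 and 2.36, and Lama4 at 0.61, 1.40 and 3.44 CPM. Col26a1 was not listed at MS-LS and stood at 0.74 and 4.12 CPM later. None of these was above 6 CPM at any stage.

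Several abundant members did not pass 2-fold. Lamb1 stood at 23.9, 18.6 and 44.9 CPM, Lamc1, which did pass, at 20.7, 13.5 and 44.2 CPM, and Col18a1 at 22.0, 19.5 and 34.6 CPM. The log2 ratio of EHF to MS-LS was 0.91 (0.74 to 1.08) for Lamb1, 0.70 (0.58 to 0.81) for Col4a1, 0.66 (0.48 to 0.84) for Col18a1 and -0.04 (-0.30 to 0.22) for Lama5. Col27a1, a fibrillar collagen gene of cartilage, was level at 5.23, 5.34 and 4.81 CPM. The transmembrane collagen genes Col23a1 (3.01, 1.89 and 5.74 CPM) and Col13a1 (2.62, 3.86 and 4.66 CPM), the laminin β2 gene Lamb2 (2.28, 3.12 and 4.51 CPM) and the type IX gene Col9a3 (20, 22 and 34 UMIs) were also within 2-fold between MS-LS and EHF.

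The earlier step was small. Between MS-LS and OB-EB, 12 members had enough UMIs, 1 passed 2-fold upward and none downward, against 5.13% and 3.96% of all genes. That member was Col1a2, the α2 chain gene of type I collagen, with a log2 ratio of 1.06 (0.44 to 1.69) on 39 and 55 UMIs. Between OB-EB and EHF, 11 of 21 members passed 2-fold upward, against 16.8% of all genes, and none downward (6.11%). They were Lama1 (3.32), Col2a1 (2.49), Col26a1 (2.48), Col4a2 (2.29), Lamc1 (1.72), Col1a1 (1.68), Col23a1 (1.60), Lama4 (1.30), Col5a1 (1.28), Lamb1 (1.27) and Col4a1 (1.05), as log2 ratios. Of the 8 members with 50 UMIs at OB-EB alone, 4 passed, Lamc1, Col4a1, Col4a2 and Lamb1, against 9.97% of all genes with 50 UMIs there. The 3 stage comparisons share libraries and are not independent of each other.

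A small class of cells carried much of the EHF level. The 66 parietal endoderm-like cells were 1.89% of EHF cells and held 0.888% of its UMIs, but 33.4% of the family's UMIs. They held 43.7% of the Col4a1, 44.7% of the Col4a2, 41.0% of the Lamb1, 50.4% of the Lamc1 and 75% of the Lama1 UMIs of that library. Without them the log2 ratio of EHF to MS-LS was 1.38 (0.85 to 1.94) for Lama1, 0.73 (0.53 to 0.94) for Col4a2, 0.16 for Lamb1, 0.10 for Lamc1 and -0.12 (-0.25 to 0.01) for Col4a1. The members past 2-fold were then 9 of 20, against 13.6% of all genes, with Lamc1 and Col4a2 no longer among them. Of the 8 members with 50 UMIs at MS-LS, none passed upward, against 6.32% of all such genes. Against OB-EB 8 of 21 passed, against 16.6%. Of the 8 members with 50 UMIs at OB-EB, 1 passed, Col4a2, against 9.85% of all such genes. No class of this name was found at MS-LS or OB-EB.

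The parietal endoderm-like cells had the highest level of 5 basement membrane genes of any class at any stage. Their levels were 4069 CPM (3780 to 4374) for Col4a1, 2532 CPM (2305 to 2775) for Col4a2, 2510 CPM (2284 to 2752) for Lamc1, 2073 CPM (1869 to 2294) for Lamb1 and 1940 CPM (1743 to 2154) for Lama1. In the embryonic reference at EHF the same genes stood at 31.5, 15.6, 15.9, 29.2 and 6.9 CPM. The ratio was 280-fold for Lama1 (log2 8.13, 7.72 to 8.56), 163-fold for Col4a2 (7.34, 7.06 to 7.64), 157-fold for Lamc1 (7.30, 7.01 to 7.59), 129-fold for Col4a1 (7.01, 6.81 to 7.22) and 71.0-fold for Lamb1 (6.15, 5.91 to 6.39). These were 5 of the 10 members with enough UMIs, against 14.7% of all genes, and the median log2 ratio was 3.68 over the 10 and 0.04 over all genes.

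Other chain genes had few UMIs there. Lamb2 had 10 (55.3 CPM, 26.5 to 102), against 4.02 CPM in the reference, and Col13a1 had 3, with a log2 ratio of 0.96 (-1.35 to 2.57). Lama5 and Col23a1 had 1 UMI each, with log2 ratios of -1.14 (-6.46 to 1.37) and -1.09 (-6.41 to 1.42), where 15% of all genes were lower. Their reference levels of 12.2 and 11.8 CPM lie below what 3 UMIs in this class stand for (16.6 CPM), so a difference was not detectable at this depth. Col18a1 was counted in 0 of 66 cells, at a median of 2719 UMIs per cell, which allows up to 5.44% of cells with a counted UMI by the exact binomial limit and a level of up to 20.4 CPM by the exact Poisson limit, while all 10 other EHF classes had at least 1 UMI of it. Its level was 35.3 CPM (79 UMIs) in the visceral endoderm-like class of the same library.

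**Figure D2:**
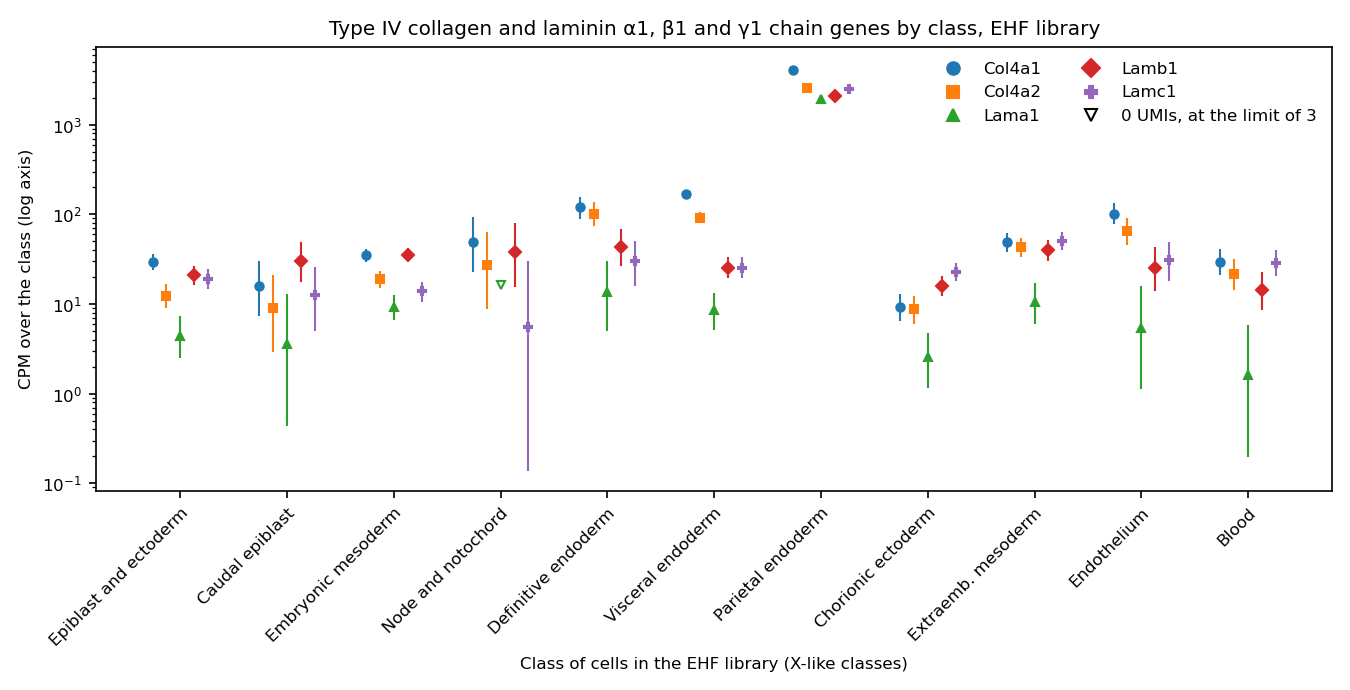
CPM of Col4a1, Col4a2, Lama1, Lamb1 and Lamc1 in each X-like class of the EHF library on a log axis, with exact Poisson 95% intervals as bars and open triangles at the level of 3 UMIs where none were counted. All 5 genes sit between 1940 and 4069 CPM in the parietal endoderm-like class, and no other class is above 170 CPM.

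In single cells each of the 5 genes was found in nearly every cell of the class. Col4a1 and Col4a2 were both found in 97.0% of the 66 cells (64 cells), Lama1, Lamb1 and Lamc1 in 92.4% (61 cells) and all 5 in 90.9% (60 cells). The shares of the single genes multiplied together give 95.5%, 88.4% and 84.4%. The summed count of the 5 had a median of 34 UMIs per cell, a range of 0 to 87, and made up 1.31% of the class's UMIs. At least 20 such UMIs were found in 58 of these cells and in 2 other EHF cells, while no cell reached 20 at MS-LS, where the highest had 13, or at OB-EB, where the highest had 9. With every cell thinned to 1500 UMIs, Col4a1 was found in 96.9% (89.3 to 99.6) of the class, unthinned in 98.5%. In the chorionic ectoderm-like cells, the lowest class for this gene, the thinned share was 1.0% and the unthinned 4.7%, with median depths of 2719 and 6934.5 UMIs in the parietal and chorionic classes.

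All 5 markers used for the name were present. Srgn stood at 1150 CPM, Pth1r at 1426, Thbd at 238, Plat at 122 and Sox7 at 94 in the class. In the other EHF cells they stood at 2.5, 27.2, 1.0, 3.8 and 4.2 CPM. The visceral endoderm markers were low, with Afp at 0, Ttr at 133 and Apoa1 at 71.9 CPM against 403, 9849 and 7090 CPM in the visceral endoderm-like class. The MS-LS and OB-EB tables list 4 of these 5 markers. At MS-LS 13 cells had UMIs of at least 3 of the 4, all in the visceral endoderm-like class, with a median of 4 UMIs over the 5 basement membrane genes. At OB-EB 0 cells had at least 3 of the 4, and at EHF 46 cells had at least 3 of the 5, of which 38 were in the parietal class.

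Against the visceral endoderm-like cells of the same embryos, the parietal class was also far higher. The ratio was 228-fold for Lama1 (log2 7.84, 7.17 to 8.59), 98.5-fold for Lamc1, 81.4-fold for Lamb1, 27.6-fold for Col4a2 and 24-fold for Col4a1 (4.59, 4.41 to 4.77). These 5 of 6 members were higher and Col18a1 was lower, against 8.89% and 19.8% of all genes. The laminin chain genes thus had the larger ratios between these endoderm classes and the type IV chain genes the smaller.

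The partners of the family were counted over 5 lists of 70 genes in all, against the same background of 14.7% higher and 15% lower. Of 9 basement membrane partners with enough UMIs, 5 were higher and 1 lower than in the embryonic reference. Nid1, the nidogen that links laminin to collagen IV, stood at 1238 CPM against 2.19 (565-fold, 224 and 18 UMIs). Sparc, a collagen-binding glycoprotein gene, stood at 6745 CPM against 124 (54.4-fold), and Hspg2, the perlecan gene, had a log2 ratio of 4.09. Pxdn, the peroxidase gene for sulfilimine cross-links of collagen IV, had 2.39. Fn1, the fibronectin gene and the most counted partner in this list, had 1 UMI in the class and 222 CPM in the reference (log2 -5.33, -10.63 to -2.85).

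The folding and cross-linking machinery was higher almost throughout, with 16 of 17 genes past 2-fold and none lower. Serpinh1, the collagen chaperone HSP47, stood at 4633 CPM against 169 (log2 4.78). The prolyl 4-hydroxylase genes P4ha2, P4ha1 and P4hb had log2 ratios of 6.07, 4.16 and 2.51, and the lysyl hydroxylase genes Plod2, Plod3 and Plod1 had 5.22, 5.18 and 4.36. Colgalt1, which adds galactose to hydroxylysine, had 4.43, and P3h1, P3h4 and P3h2 of prolyl 3-hydroxylation had 3.99, 3.81 and 2.86. Sec23a, a coat gene of the vesicles that carry procollagen, had 2.47, and the prolyl isomerase gene Ppib had 697 CPM against 285.

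Processing, receptors and degradation were mixed. None of 3 procollagen processing genes was higher, and Pcolce2, Pcolce and Bmp1 were at 0 UMIs in the parietal cells against 15, 15 and 6.69 CPM in the reference. These levels lie below what 3 UMIs in the class stand for (16.6 CPM), so a difference was not detectable at this depth. Of 7 receptor genes, 2 were higher, Itga6 (3.94) and Itgb1 (188 CPM against 56.8), which form a laminin-binding integrin, and the syndecan genes Sdc1 and Sdc2 had log2 ratios of -1.51 (-3.79 to 0.05) and -1.95 (-7.26 to 0.55) on 3 UMIs and 1 UMI, with intervals that reach above 0. Of 7 degradation genes, 4 were higher. They were the protease gene Adamts9 (536 CPM against 4.87, 110-fold) and the inhibitor genes Timp3 (3.40), Timp2 (3.27) and Timp1 (2.92), while the membrane protease gene Mmp14 had 0 UMIs there and 23.1 CPM in the reference.

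The visceral endoderm-like cells (543, 287 and 333 at the 3 stages) held more Col4a1 molecules than any other class at MS-LS and OB-EB. Their share of the Col4a1 UMIs was 66.8% at MS-LS, 37.9% at OB-EB and 22.5% at EHF. They were 14.9%, 7.19% and 9.53% of the cells, and unnamed cells held 11.1%, 26.7% and 2.85% of the Col4a1 UMIs. A difference in share between stages is therefore also one in the number of cells that took the name. Their Col4a1 level was 210 CPM at MS-LS, 169 at OB-EB and 169 at EHF, and their Col4a2 level was 69.99, 48.6 and 91.6 CPM. The log2 ratio of Col4a1 to the embryonic reference was 3.6 (3.32 to 3.89), 3.38 (2.98 to 3.80) and 2.43 (2.19 to 2.66). That of Col4a2 was 3.89, 2.99 and 2.56. At each stage both were past 2-fold, and the Col4a1 level of the embryonic reference itself was 17.3, 16.2 and 31.5 CPM.

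At MS-LS 6 of 7 members with enough UMIs were higher in the visceral endoderm-like cells, against 21.1% of all genes. Besides the type IV genes they were Col27a1 (log2 2.12), Lamc1 (1.43), Lamb1 (1.32) and Lama5 (1.12). At OB-EB 2 of 5 were higher, against 16.7% of all genes, and at EHF 2 of 11, against 15.7%, with 3 lower, against 19.8%. The lower ones were Col26a1 (0 UMIs against 59) and the transmembrane genes Col23a1 (log2 -3.72, -6.79 to -1.83) and Col13a1 (-2.67, -4.98 to -1.06). Of the 5 members with 50 UMIs in the reference alone at MS-LS, 4 were higher, against 14.3% of all such genes. They were Col4a1, Lamb1, Lamc1 and Lama5. At OB-EB 1 of 4 was higher, Col4a1, against 11.2%. At EHF 2 of 10 were higher, against 11.3%, and 3 lower, against 21.2%. Over time within this class, none of 7 members passed 2-fold between MS-LS and EHF, against 4.72% of all genes upward and 4.76% downward. Lamb1 had a log2 ratio of -0.75, Lamc1 of -0.62, Col4a1 of -0.31 and Col4a2 of 0.39.

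Laminin counts in this class were well below those of collagen IV. Lamb1 stood at 42.9, 23.8 and 25.5 CPM, Lamc1 at 39.1, 22.9 and 25.5 CPM, Lama5 at 21.6, 12.8 and 14.8 CPM and Lama1 at 8.6, 6.4 and 8.5 CPM. The UMI ratio of Col4a1 to Lamb1 was thus 4.90, 7.08 and 6.65. Thinned to 1500 UMIs, Col4a1 was found in 25%, 23.2% and 23.7% of these cells (61.9%, 43.2% and 60.1% unthinned, median depths 4625, 3315 and 6432), against 0.7%, 0.4% and 1.0% of chorionic ectoderm-like cells (2.4%, 2.4% and 4.7% unthinned, median depths 4839, 3035 and 6934.5). Col4a1 and Col4a2 were found together in 18.97%, 8.01% and 30.03% of the visceral endoderm-like cells, where the shares of both genes multiplied give 16.98%, 7.08% and 26.2%.

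The basement membrane and folding lists of partners also leaned upward in this class. At MS-LS 6 of 9 and 10 of 16 were higher, against the 21.1% of all genes given above. At OB-EB these counts were 4 of 6 and 5 of 11, against 16.7%, and at EHF 4 of 8 and 6 of 17, against 15.7%. Several of the higher genes had under 50 UMIs in the reference and enough only with those of this class. Among them were Nid1 (14 UMIs in the reference) and Fras1 (22) at MS-LS, and Nid2 (29) and P4ha1 (37) at OB-EB. The other lists were mixed. At MS-LS 3 of 7 receptor genes were higher and 3 lower, and 3 of 5 degradation genes were higher and 2 lower. At OB-EB 2 of 6 receptor genes were higher and 3 lower. At EHF 1 of 8 receptor genes was higher and 3 lower, and 2 of 7 degradation genes were higher and 4 lower. Of 3 processing genes none was higher and 3 were lower, where 19.8% of all genes were lower. Sdc4, a syndecan gene, had log2 ratios of 4.09, 3.00 and 4.10 and Sparc of 2.61, 2.36 and 2.08 at the 3 stages. Nid2 had 2.79 and 3.02, Agrn, the agrin gene, 2.07 and 2.12, and P4ha1 2.49 and 2.28 at MS-LS and OB-EB. At MS-LS Nid1 (2.82), Fras1 (2.52), Adamts1 (2.50), P3h2 (2.49), Colgalt1 (2.05), Timp3 (2.03), Crtap (2.02) and Sec23a (2.0) were also past 4-fold.

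Other partners were lower in the visceral endoderm-like cells. Sdc1 had log2 ratios of -3.19, -2.87 (-5.18 to -1.28, 3 UMIs) and -4.14 at the 3 stages, and Sdc2 of -3.34, -4.26 (-9.58 to -1.74, 1 UMI) and -3.57. At MS-LS Pcolce2 (-4.86, -10.19 to -2.34), Timp1 (-3.65, -5.95 to -2.05), Fkbp10 (-3.39, -6.48 to -1.47) and Adamts9 (-2.31) were lower, the first 3 on 1 to 3 UMIs. At EHF Mmp2 (-5.31, -10.63 to -2.81), Pcolce2 (-5.07, -10.38 to -2.56), Timp2 (-3.90, -6.20 to -2.33), Timp1 (-3.41, -6.48 to -1.51) and Bmp1 (-2.90, -5.99 to -0.98) were lower on 1 to 3 UMIs each, as was Fkbp10 (-3.18) on 4. The share of all genes that were lower in this class was 13.9%, 15.4% and 19.8% at the 3 stages.

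The UMI ratio of the type IV chain genes differed between the libraries. Col4a1 molecules outnumbered Col4a2 molecules 3.02 to 1 (interval 2.65 to 3.45) at MS-LS, 3.89 to 1 (3.19 to 4.77) at OB-EB and 1.64 to 1 (1.52 to 1.78) at EHF. Without the parietal cells the EHF ratio was 1.67 (1.51 to 1.86). In the visceral endoderm-like class it was 3.005 (2.56 to 3.54), 3.47 and 1.85 (1.56 to 2.20), in the embryonic reference 3.68, 2.65 and 2.02, and in the parietal class 1.61 (1.43 to 1.81). The lowest EHF ratios were in the definitive endoderm-like (1.18), extraembryonic mesoderm-like (1.14) and chorionic ectoderm-like (1.06) cells. Across the 26 classes of at least 50 cells, log2(CPM + 1) of both genes had a Pearson correlation of 0.94, and of 0.88 over 25 classes without the parietal one, where classes of a stage share a library. The same values were 0.88 and 0.75 for Col4a1 with Lama1 and -0.24 and 0.22 for Col4a1 with Col18a1.

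**Figure D3:**
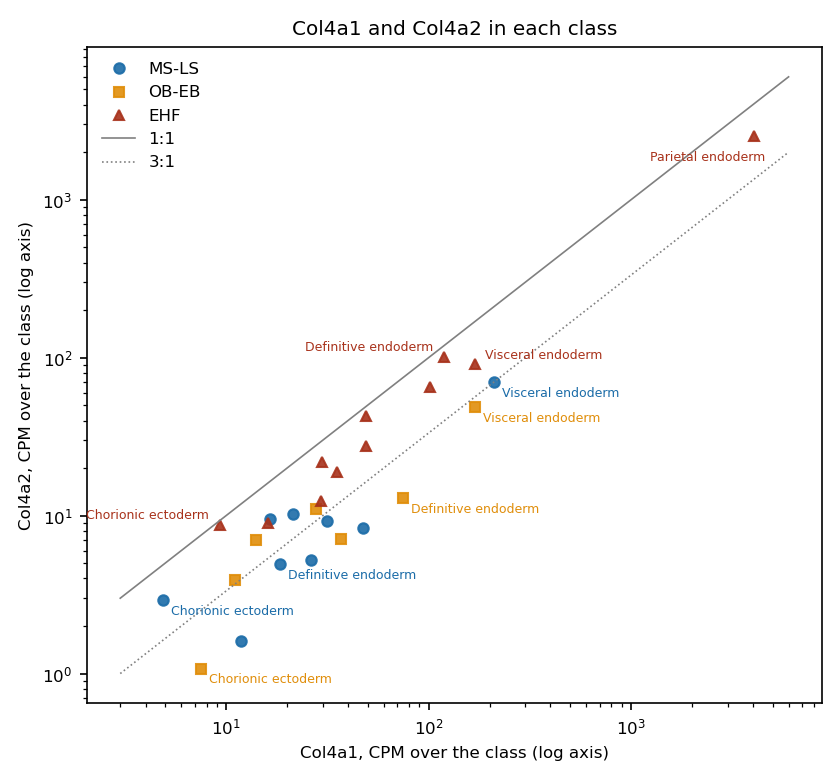
Col4a2 against Col4a1 in CPM over each X-like class with UMIs of both, on log axes, coloured by stage. EHF classes lie between the lines at ratios of 3 to 1 and 1 to 1, and MS-LS and OB-EB classes on both sides of the 3 to 1 line, with the parietal endoderm-like class at 4069 and 2532 CPM.

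The α chain genes of laminin also differed in order. Lama5 outnumbered Lama1 by 5.95 to 1 at MS-LS and 3.43 to 1 at OB-EB, and the ratio was 0.56 at EHF. Without the parietal cells Lama5 outnumbered Lama1 at EHF as well, by 2.24 to 1 on 262 and 117 UMIs. The OB-EB ratio rests on 96 and 28 UMIs, so no order between these 2 ratios is read. In the embryonic reference Lama1 stood at 1.1, 2.3 and 6.9 CPM and Lama5 at 10.0, 6.1 and 12.2 CPM.

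The definitive endoderm-like cells (152, 235 and 75) had different leading members at the 3 stages. Lamb1 led at MS-LS with 51.5 CPM, 1.58 above the embryonic reference on the log2 scale, where 2.76% of all genes were higher, and stood at 42.5 and 43.6 CPM at the later stages. Col18a1 was lower than in the reference at MS-LS (log2 -2.70, -4.99 to -1.12, 3 UMIs), where 7.24% of all genes were lower. At OB-EB Lamb1 (log2 1.5) and Col4a1 (2.21) were higher than in the reference, where 4.84% of all genes were. Col4a1 stood at 18.4, 74.6 and 119 CPM. Its log2 ratio was 2.02 (1.18 to 2.95) from MS-LS to OB-EB and 2.70 (1.85 to 3.63) from MS-LS to EHF, where 8.77% and 9.75% of all genes were higher. Col4a1 had 15 UMIs in the class at MS-LS, and enough only with those of the later stages. The OB-EB value depends on how the class is drawn. Over the barcodes that the supplement lists as definitive endoderm, Col4a1 stood at 28.0 CPM at MS-LS and 53.9 CPM at OB-EB, under 2-fold apart, and with Leiden clustering its log2 ratio to the reference at OB-EB was 1.17 instead of 2.21. Col4a2 stood at 4.9, 12.9 and 101 CPM, with a log2 ratio of 2.97 from OB-EB to EHF, where 10.5% of all genes were higher. It had under 50 UMIs in the class at OB-EB and enough only with those of EHF.

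At EHF these endoderm cells were also past 2-fold over the reference in Col4a1 (log2 1.92), Col4a2 (2.70), Col18a1 (1.03, 66.6 CPM) and Col2a1, where 7.59% of all genes were. Col2a1, the type II collagen gene of cartilage and notochord, stood at 36.7 CPM on 16 UMIs, 7.54-fold above the reference (log2 2.92, 1.98 to 3.78). At MS-LS and OB-EB it stood at 1.2 and 2.6 CPM in the same class. Lama1 stood at 13.8 CPM at EHF.

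Col18a1 was the leading member in the epiblast- and ectoderm-like cells (895, 893 and 496), with 32.6, 27.5 and 50.2 CPM. Against the other embryonic classes it was 3.04-fold, 5.06-fold and 2.50-fold higher (log2 1.60, 2.34 and 1.32), where 3.2%, 5.74% and 2.85% of all genes were higher. At MS-LS and OB-EB Col18a1 had under 50 UMIs in those other classes and enough only with those of the epiblast. At EHF it was the 1 higher of 8 members with 50 UMIs in the other classes, against 1.26% of all such genes. Col4a1 was lower in the epiblast- and ectoderm-like cells at MS-LS and OB-EB (log2 -1.12 and -1.22), where 4.39% and 3% of all genes were lower, and level at EHF (-0.16). Its own levels were 11.8, 11.1 and 29.5 CPM, a log2 ratio of 1.32 (0.82 to 1.84) from MS-LS to EHF, where 11.9% of all genes were higher. Lamb1 stood at 13.4, 10.4 and 21.0 CPM, Lamc1 at 13.6, 14.7 and 19.2 CPM and Lama5 at 11.8, 8.6 and 15.4 CPM.

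The chorionic ectoderm-like cells (540, 245 and 514) were also led by Col18a1, with 24.3, 24.6 and 29.6 CPM. Lamc1 was second with 20.7, 11.8 and 22.8 CPM. Col4a1 was low, at 4.85, 7.49 and 9.29 CPM, with log2 ratios of -1.84, -1.11 and -1.76 to the embryonic reference, where 11.2%, 11.6% and 13.9% of all genes were lower. At EHF Col23a1 (-5.39, -10.71 to -2.88), Col26a1 (-3.67, -6.75 to -1.76) and Lama1 (-1.45) were lower there as well, and Col13a1 had no UMI. The UMI ratio of Lamc1 to Lamb1 in these cells was 1.88 (1.22 to 2.94) at MS-LS, 1.57 (0.56 to 4.78) at OB-EB on 11 and 7 UMIs, and 1.42 (1.0 to 2.03) at EHF. In embryonic mesoderm-like cells it was 0.48 (0.26 to 0.83), 0.34 (0.16 to 0.70) and 0.39 (0.28 to 0.53).

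The embryonic mesoderm-like cells (321, 433 and 722) were led by Col4a1 (31.6, 27.8 and 35.1 CPM) and Lamb1 (24.1, 23.4 and 35.6 CPM). Against the other embryonic classes Col4a1 was higher at MS-LS and OB-EB (log2 1.30 and 1.38), where 3.49% and 2.97% of all genes were higher, and Col18a1 was lower at each stage (-1.84, -2.92 and -1.39), where 5.44%, 6.09% and 3.14% were lower. Lamb1 was higher at OB-EB (1.08). Of the 5 members with 50 UMIs in the other classes at MS-LS, 1 was higher, Col4a1, against 2.13% of all such genes. At OB-EB Col4a1 and Lamb1 had under 50 UMIs in the other classes and enough only with those of the mesoderm. Col18a1 stood at 8.0, 3.7 and 18.3 CPM and Lama5 at 3.4, 1.5 and 6.3 CPM in these cells, and Lama5 was lower than in the other classes at MS-LS (-1.81) and EHF (-1.55).

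At EHF the mesoderm-like cells were higher in less common collagens. Col23a1 and Col13a1, which encode collagens anchored in the cell membrane, were 10.3-fold (log2 3.36, 2.32 to 4.62) and 9.86-fold (3.30, 2.10 to 4.80) above the other embryonic classes. With Leiden clustering the log2 ratio of Col13a1 was 1.97. Col26a1, which encodes a secreted collagen with an EMI domain, was 3.62-fold above them and Lama1 2.17-fold. These were 4 of 10 members, where 4.34% of all genes were higher. Each had under 50 UMIs in the other classes and enough UMIs only with those of the mesoderm. Of the 5 members with 50 UMIs in the other classes, none was higher, against 1.48% of all such genes. Within the mesoderm Col23a1 stood at 3.4, 9.5 and 20.8 CPM, with a log2 ratio of 2.60 (1.42 to 4.08) from MS-LS to EHF. Of 7 members, 3 were past 2-fold there, this gene, Col18a1 (1.18) and Col4a2 (1.05), where 15.1% of all genes were higher. They had 6, 14 and 16 UMIs at MS-LS and enough UMIs only with those of EHF. Col13a1 was already at 10.3 and 17.5 CPM at MS-LS and OB-EB and stood at 15 CPM at EHF.

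The EHF mesoderm types differed in these genes. Col23a1 stood at 41.8 CPM (28.8 to 58.7) in cranial and pharyngeal-like mesoderm, 33.7 in paraxial-like, 22.3 in cardiac-like, 12.9 in presomitic-like and 5.48 CPM (1.78 to 12.8) in nascent-like mesoderm. Lamb1 stood at 48.2 CPM (35.1 to 64.8) in nascent-like, 45.5 (34.7 to 58.6) in presomitic-like, 27.9 in cardiac-like, 21.5 in cranial and pharyngeal-like and 20.6 CPM in paraxial-like cells. Col2a1 stood at 12.7 CPM in the cranial and pharyngeal type.

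The extraembryonic mesoderm-like cells (277, 295 and 216) had their highest levels of all leading members at EHF. Col4a1 stood at 21.4, 36.8 and 48.9 CPM, Col4a2 at 10.3, 7.2 and 43.0, Lamb1 at 18.9, 18.4 and 39.8, Lamc1 at 15.4, 13.3 and 50.2, and Col18a1 at 5.14, 15.3 and 46.9 CPM. All 5 members with enough UMIs were past 2-fold between MS-LS and EHF, against 15.1% of all genes. The log2 ratios were 3.19 (2.0 to 4.68) for Col18a1, 2.06 for Col4a2, 1.70 (0.95 to 2.53) for Lamc1, 1.19 for Col4a1 and 1.08 for Lamb1. None of the 5 had 50 UMIs at MS-LS, where they had 6, 12, 18, 25 and 22, so each had enough UMIs only with those of EHF. At MS-LS Lama5 (log2 -3.54, -8.86 to -1.02, 1 UMI) and Col18a1 (-2.21) were lower in these cells than in the embryonic reference, where 6.66% of all genes were lower. Lama5 stood at 0.9, 7.2 and 11.7 CPM in these cells, and Lama4 at 5.1, 7.2 and 24.1 CPM.

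The α1 chain gene of type I collagen was counted mainly there at EHF. Of 59 EHF UMIs of Col1a1, 46 were in the extraembryonic mesoderm-like cells, at 29.99 CPM, against 2.6 and 5.1 CPM at the earlier stages. This was 30.8-fold above the embryonic reference (log2 4.94, 3.85 to 6.24). Of 115 EHF UMIs of Col1a2, 43 were in these cells, at 28.0 CPM, 6.58-fold above the reference (2.72, 2.04 to 3.40), and at OB-EB 5 of 55. With Lamc1 (1.65), Col4a2 (1.47) and Col9a1 (1.02) these were 5 of 14 members past 2-fold, against 6.42% of all genes, and Col13a1 and Col23a1 were lower, against 6.97%. Col1a1, Col1a2 and Col9a1 had only 8, 35 and 37 UMIs in the reference. Of the 10 members with 50 UMIs in the reference alone, 2 were higher, Lamc1 and Col4a2, against 5.08% of all such genes, and 2 lower. Col1a2 stood at 14.5 CPM in the blood-like cells, 3.40-fold above the reference, and at 20.04 CPM in the endothelium-like cells.

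**Figure D4:**
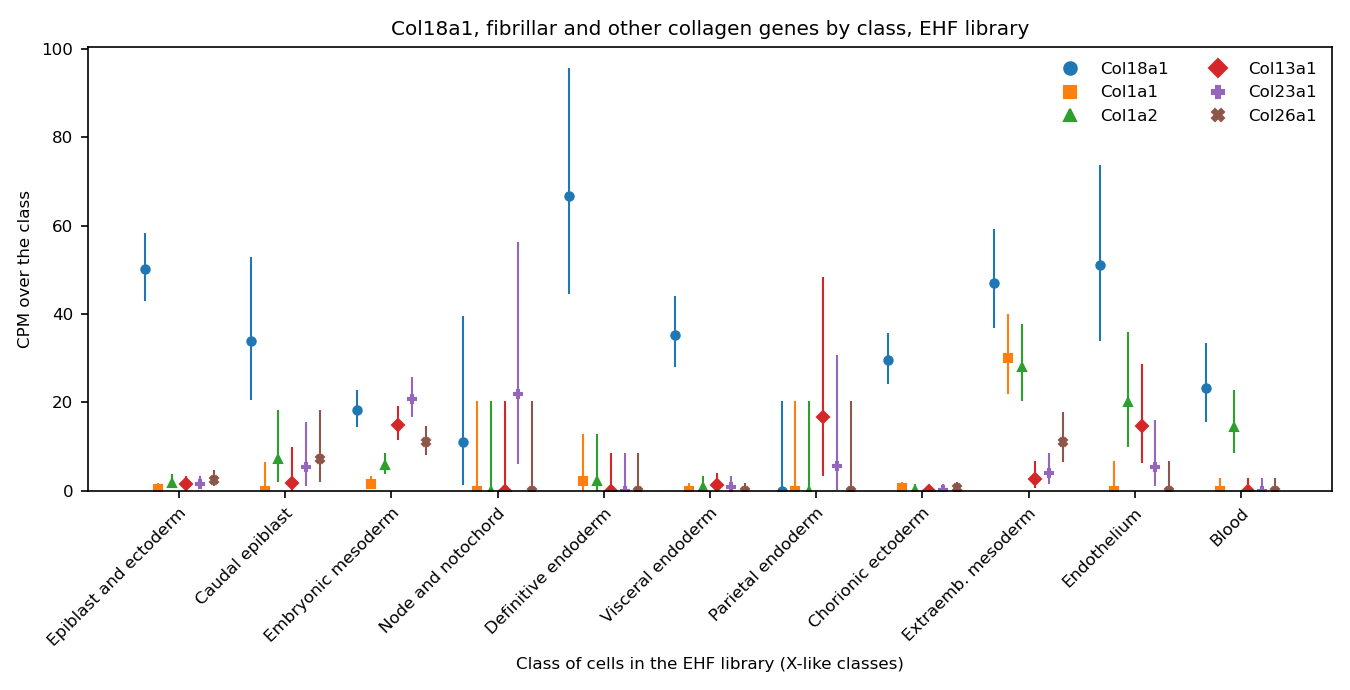
CPM of Col18a1, Col1a1, Col1a2, Col13a1, Col23a1 and Col26a1 in each X-like class of the EHF library on a linear axis, with exact Poisson 95% intervals as bars. Col1a1 reaches 29.99 CPM in the extraembryonic mesoderm-like class and Col18a1 66.6 CPM in the definitive endoderm-like class, with 0 in the parietal one.

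The endothelium-like cells (73 at MS-LS and 86 at EHF) carried Col4a1 at 47.2 and 102 CPM, 1.45 and 1.69 above the embryonic reference on the log2 scale, where 6.22% and 5.38% of all genes were higher. Within the class the log2 ratio of EHF to MS-LS was 1.11, where 7.46% of all genes were higher. It rests on 17 and 56 UMIs, enough only with those of EHF. In the EHF class 1 cell held 28 of the 126 UMIs of Col4a1, Col4a2, Lama1, Lamb1 and Lamc1 together. Col4a2 stood at 8.3 and 65.6 CPM (log2 2.07 at EHF over the reference), Lamb1 at 33.3 and 25.5 CPM, and Col18a1 at 51.0 CPM at EHF. Lama4 stood at 8.3 and 23.7 CPM and Col13a1 at 13.9 and 14.6 CPM. No OB-EB class took this name, but an unnamed OB-EB cluster of 142 cells led by Lmo2, Fli1 and Kdr had Col4a1 at 104 CPM. The supplement lists 142 OB-EB barcodes as endothelial and blood, all unnamed here, and over these Col4a1 stood at 104 CPM (76.3 to 138). The blood-like cells of EHF (229) had Col4a1 at 29.8, Lamc1 at 29.0, Col18a1 at 23.3 and Lama4 at 8.9 CPM. Of 11 members with enough UMIs, Col1a2 was higher there than in the reference, against 6.12% of all genes, and 5 were lower, against 18.6%, with a median log2 ratio of -0.92 over the 11. The lower ones were Col26a1, Col13a1 and Col23a1 with 0 UMIs each, Lama1 (-2.11, -5.19 to -0.19, 2 UMIs) and Lamb1 (-1.01).

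Some small classes had only a few UMIs. The streak-like cells (127 and 37, with the 79 caudal epiblast-like cells at EHF) were led at MS-LS by Lamc1 (22.6 CPM) and Lamb1 (20.9 CPM), at OB-EB by Lamb1 and Col18a1 with 3 UMIs each, and at EHF by Lama5 (37.5 CPM, 23.2 to 57.3), which was 1.86 above the other embryonic classes on the log2 scale where 2.57% of all genes were higher, and Col18a1 (33.9 CPM). Of the 10 members with enough UMIs at EHF, 4 were past 2-fold downward, against 6.64% of all genes. They were Col4a1 (log2 -1.02, -2.17 to -0.07), Col13a1 (-2.34, -7.66 to 0.19, 1 UMI), Col23a1 (-1.20, -3.50 to 0.40, 3 UMIs) and Lama1 (-1.01, -4.09 to 0.91, 2 UMIs), and the last 3 intervals reach above 0. The node- and notochord-like cells (57, 54 and 45) were led by Col4a1 and Lama5 at 26.2 CPM each at MS-LS, by Col18a1 (28.2 CPM) and Lamb1 (21.1 CPM) at OB-EB, and by Col4a1 (49.4 CPM) with Lama5 and Lamb1 (38.4 CPM each) at EHF. An unnamed MS-LS cluster of 133 cells was led by Dkk1, Kitl and Fzd5. Its type IV collagen levels were near those of the visceral endoderm-like class at MS-LS, and its laminin levels were higher. It held Col4a1 at 187 CPM (150 to 230), Lamb1 at 80.6, Lamc1 at 76.4, Col4a2 at 65.8 and Lama5 at 53.0 CPM.

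**Figure D5:**
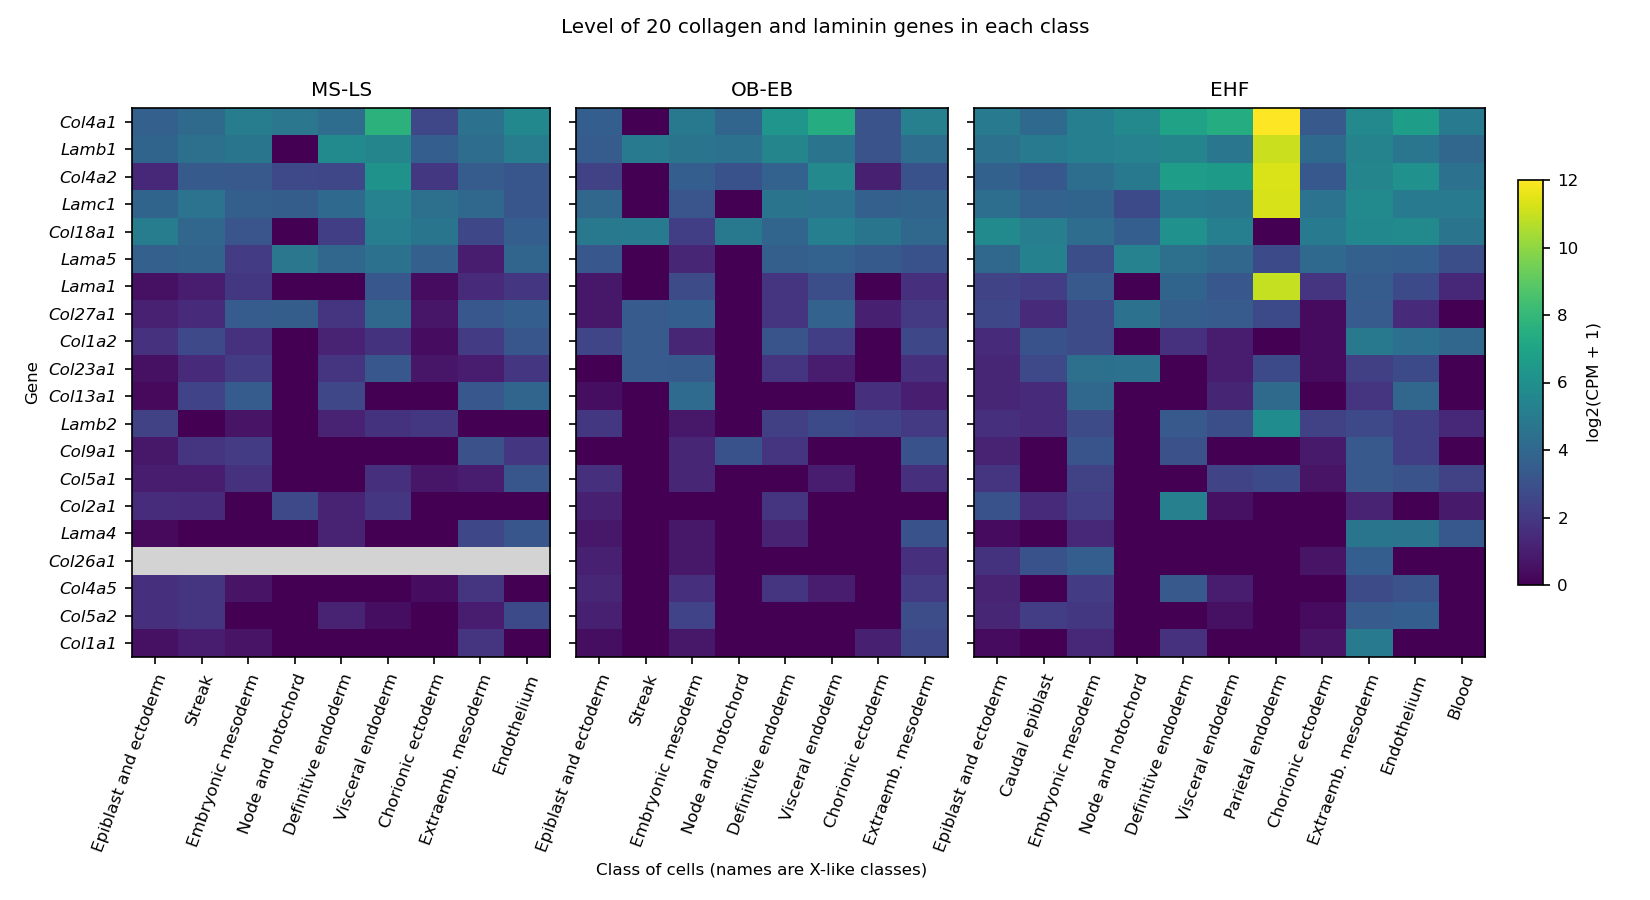
log2(CPM + 1) of the 20 members with the most UMIs (rows) in each X-like class (columns) of the 3 libraries, with grey for a gene that a table does not list and the streak-like class shown as caudal epiblast at EHF. The brightest cells, at 11 to 12, are Col4a1, Col4a2, Lamb1, Lamc1 and Lama1 of the parietal endoderm-like class at EHF, where Col18a1 is at 0.

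Within the embryo proper, the members past 2-fold by stage were ones with few UMIs at MS-LS. In the embryonic reference, 5 of 13 members were past 2-fold from MS-LS to EHF, against 14.6% of all genes, and the median log2 ratio was 0.77 over these members and 0.31 over all genes. They were Col23a1 (3.09, 2.15 to 4.20), Lama1 (2.65, 1.57 to 3.92), Col2a1 (1.81), Col4a2 (1.73, 1.17 to 2.32) and Col13a1 (1.36), which had 10, 8, 10, 34 and 24 UMIs at MS-LS. None of the 5 members with 50 UMIs at MS-LS alone passed, against 6.60% of all such genes. The log2 ratio was 0.86 for Col4a1, 0.77 for Lamb1 and 0.45 for Col18a1, which did not pass. The make-up of the reference differed as well, since embryonic mesoderm-like cells were 321 of its 1343 cells at MS-LS and 722 of 1297 at EHF.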

How the data were processed

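Droplet single-cell RNA-seq of whole mouse embryos (Chromium 3′ chemistry version 2) gave 1 library per stage, from papain-dissociated embryos. The authors' UMI counts per gene and cell were deposited after their filters on genes, UMIs and mitochondrial share and were used as counts, with no scaling. The submitters' processing notes name Cell Ranger 3.0.2, R 3.6.1 and Seurat 3, and the methods name Ensembl GRCm38 release 86 with tdTomato added. The deposited cells had at least 1001, 1003 and 1004 UMIs (MS-LS, OB-EB, EHF), and library totals were 17966956, 12181436 and 20376539.

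Cells were log-normalised to 10000, and the 2000 most variable genes, without the members and 70 partner genes, gave 50 components and clusters at resolution 4.5 (Seurat 5.3.0, R 4.3.3). This gave 25, 25 and 31 clusters. A cluster took the name with the highest mean marker score if it led by 0.2 log2 units and had 3 detected markers. Epiblast, neuroectoderm and surface ectoderm names were merged after the clusters were seen. UMIs were summed per class (Python 3.11.15, numpy 2.4.6, pandas 2.3.3). CPM have exact Poisson 95% intervals, shares exact Clopper-Pearson intervals and log2 ratios exact conditional binomial intervals (scipy 1.17.1). Three-prime counting was not corrected for length. Interval coverage and calls were tested on simulated data.

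Scrublet marked 6, 0 and 13 cells at its automatic threshold, too few for it to have worked, so cells were kept, and the top 5% of scores (182, 200 and 175 cells) were left out as an alternative. Full values are given for the 20 members with the most UMIs, the 2 highest members of each class and members past 4-fold from MS-LS to EHF. Of the partners, those with the most UMIs in each of 5 lists and those past 4-fold in endoderm are named. Promoter windows and the sequence shown came from RefSeq tables of GRCm38.p6. The members, lists and classes were chosen with earlier results of these data known. The values of 1 member are not reported here. With 1 library per stage no test between stages or classes was made.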

Additional observations from a re-analysis of the deposited data

How the results depend on the processing

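With 1 library per stage, no library could be left out and no spread between embryos is known. No paired analysis was possible because each stage had 1 library and no test was made. Of 452 values recomputed for 74 results under other settings, 420 moved by less than their counting interval or, for counts, by less than 1.5-fold, and 32 moved. None of the called values changed sign. The 11 members past 2-fold from MS-LS to EHF were 7 with median-of-ratios size factors, which shift EHF against MS-LS by 0.29 log2 units, and 17 at a fold of 1.5, which 30.6% of all genes passed. They were 2 of 8 when 50 UMIs at MS-LS alone were asked for, chosen after seeing the data, against 6.46% of all genes. The 2 members higher in visceral endoderm-like cells at OB-EB were 4 at resolution 2 and 4 at resolution 8. The share of visceral endoderm-like cells with Col4a1 depends on the depth of thinning by construction. It was 19.3%, 16.4% and 14.1% at 1000 UMIs and 44.5%, 34.9% and 34.8% at 3000 UMIs for MS-LS, OB-EB and EHF. The joint share of Col4a1 and Col4a2 in the parietal endoderm-like cells was 100% with the highest Scrublet scores left out. Leaving out the parietal endoderm-like cells, chosen after seeing the data, moved the log2 ratio of EHF to MS-LS of 5 members, as given with the stage comparison. Leiden clustering gave Col4a1 in definitive endoderm-like cells at OB-EB a log2 ratio of 1.17 and Col13a1 in EHF mesoderm-like cells 1.97. The low count of most members limits what can be said of the 14 with under 20 UMIs.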

Other observations

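The cross-linking enzyme gene Loxl2, a lysyl oxidase-like gene and the most counted of the 70 partner genes, went the other way from the collagens with stage. It had 10192, 7147 and 652 UMIs at MS-LS, OB-EB and EHF, or 567, 587 and 32.0 CPM, a log2 ratio of -4.15 (-4.26 to -4.03) from MS-LS to EHF. In the embryonic reference it stood at 798, 719 and 29.2 CPM, and in visceral endoderm-like cells at 273, 305 and 55.4 CPM, so that at EHF alone of the 3 stages the embryonic level was the lower one. P3h3, a prolyl 3-hydroxylase family gene, had 540, 308 and 54 UMIs (30.1, 25.3 and 2.65 CPM; log2 -3.50). These were the only 2 of 19 folding and cross-linking genes past 2-fold downward between MS-LS and EHF, where 4.92% of all genes were, and 5 were past it upward, among them P4ha2, P4hb and P3h1, where 13.7% of all genes were. With 1 library a stage, a difference between libraries and between stages cannot be told apart for these genes.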
